A study of Mus musculus with 8 samples.

Results

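The germline and meiosis genes described here are 38 genes named for their known work in germ cells, of the 55418 genes in the count tables. They were listed by name, with earlier results of these data known, and all 38 were found. By role they comprised 5 genes of germ cell specification and primordial germ cells, 6 of germ cell RNA binding and transcription, 11 of the piRNA pathway and retrotransposon defence, 11 of the meiotic chromosome axis, synapsis and recombination, and 5 other germ cell genes. RNA-seq was measured in 8 libraries of E14 mouse embryonic stem cells (ESCs, strain given as 12910la), 2 in each of 4 groups, with growth on gelatin in 15% serum and LIF at 10 ng/ml common to all. Per the labels, the libraries of all 4 groups carry the same protocol of transfection with 1000 ng of pSuper puro plasmid and puromycin at 1 µg/ml for 3 days, begun 24 h later. In the 3 depleted groups the plasmid held an shRNA against Hira, Ubn1 or Ubn2. The labels call the control cells wild type, while the methods of the study describe an shRNA against luciferase in the control plasmid. The cells are a transiently transfected and drug-selected population of 1 line. Nothing in the labels says that the 2 libraries of a group came from separate cultures, so the p-values measure the spread between these libraries, which may be technical.

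HIRA, with its partners UBN1 and UBN2, is a histone chaperone that places the variant histone H3.3 into chromatin outside of DNA replication. Germline genes are a textbook case of epigenetic silencing. Many have CpG-rich promoters that are methylated in somatic cells, and in ESCs the repressive complex PRC1.6, which reaches DNA through E2F6 and the E-box factors MGA and MAX, holds many of them low. Their products specify primordial germ cells, use PIWI proteins and their small RNAs (piRNAs) to silence retrotransposons, and pair and recombine homologous chromosomes in meiosis. The comparisons ask which of these genes differed after loss of each HIRA complex member, and whether the depletions differed from each other.

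The libraries held between 19710040 and 32706053 counts on genes, so that 3 counts correspond to between 0.0917 and 0.152 CPM (counts scaled by library size), a floor that covers counting error only. The targeted genes fell by 3.22 (Hira), 1.03 (Ubn1) and 0.90 (Ubn2) on the log2 scale in their own depletion, each with an adjusted p under 0.05. Of 8 spermatid markers, 7 had 9 counts or fewer in every library and 1 had no count at all, and their summed level lay between 1.39 and 2.46 CPM over the 8 libraries. The 10 naive pluripotency markers summed to between 4488 and 5197 CPM, and 1 of them, Tbx3, was called, higher after Ubn2 depletion, where 9.59% of all genes were called higher. Markers of the 2-cell-like state rose together with the groups. The 10 markers summed to between 3.49 and 7.30 CPM in control, 19.97 and 27.7 with Hira depleted, 14.9 and 15.7 with Ubn1 depleted, and 24.4 and 38 with Ubn2 depleted. Of those tested, 6 of 6, 4 of 6 and 7 of 7 were called higher and none lower, beside 10.8%, 1.53% and 9.59% of all genes called higher. A marker near the floor in control can pass the filter on low counts only through depleted libraries where it is high. Its call is then partly set by the filter, so these counts are not read as a result. In bulk RNA, more cells of a state and more RNA per cell cannot be told apart, and the part of 2-cell-like cells in the changes below was not tested. The 2 libraries of a group also differed in the germline genes themselves. Of 35 members with a mean of at least 20 counts, 25 were higher in replicate 1 than in replicate 2 in the control and again after Hira depletion, 18 after Ubn1 depletion and 10 after Ubn2 depletion, against 48.9%, 48.7%, 46.2% and 50.3% of 16619 genes. Libraries of a group differed beyond counting error at between 28.8% and 40.8% of those genes. They were not merged, and each fit took the 2 libraries of a group as its replicates.

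In control ESCs most of these genes had RNA. Per kb of exon, the members ranged from 0.00802 CPM for Spo11, the enzyme that makes meiotic DNA breaks, to 59.5 CPM for Rpl10l, the retrotransposed copy of the ribosomal protein gene Rpl10 used in meiosis. Their median was 2.90 CPM per kb, beside 1.07 over the 28358 genes that had control counts and a length. Tex19.1, which acts against retrotransposons, stood second at 26.0, followed by Syce1, a central element protein of the synaptonemal complex, at 16.1, Tex14, needed for the bridges between germ cells, at 15.0, and Dnd1, an RNA-binding protein that primordial germ cells need to survive, at 13.5. At the other end, Tdrd9, a piRNA pathway helicase, was at 0.186 and Asz1, which anchors that pathway at mitochondria, at 0.0966. Spo11 had 0 to 4 counts and Asz1 1 to 9 counts in the 8 libraries, and neither passed the filter on low counts in any comparison.

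**Figure D1:**
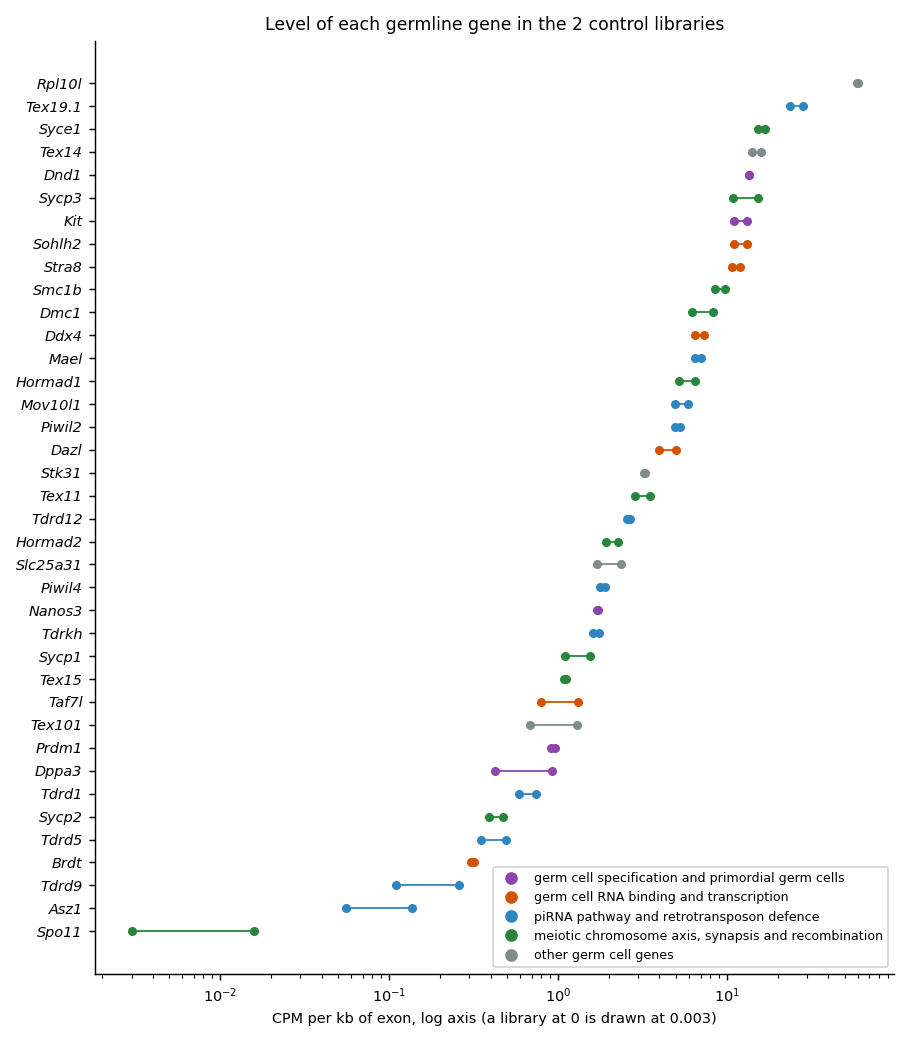
Level of each of the 38 germline genes in control ESCs, in CPM per kb of exon on a log axis, with 1 point for each of the 2 control libraries and a colour for each role. The genes span from 0.00802 (Spo11, drawn at the axis minimum where a library had no count) to 59.5 (Rpl10l), and each role has members in both the upper and the lower part of the range.

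The promoters were searched for the motifs of the DNA-binding partners of PRC1.6. RefSeq windows of GRCm38.p6 from 250 bases before to 50 bases after the start site were matched for 32 members. For Prdm1, Nanos3, Stra8, Tdrd5 and Tex101, all 250 bases before that site lie inside the annotated gene, and some other windows lie there in part. These windows are kept in the tallies below, also that of Nanos3 with a CpG ratio of 0.131. Both strands were searched. The E-box, CACGTG, reads alike on either strand. The E2F motif was searched as TTCCCGC with its reverse complement, and the pair of motifs can share at most 1 base. The E-box was found in 12 of the 32 windows (37.5%) and in 7.24% of all 27025 windows of this length. The E2F motif was found in 8 (25%) beside 4.66%, and both motifs in 4 (12.5%) beside 0.463%. Members' windows also had more CpG, with a median ratio of observed to expected CpG of 0.693 beside 0.389. Among windows with a ratio over 0.6, which were 22 of the members' and 9849 in all, the E-box was in 50% of the members' windows and 11.4% of all, and the E2F motif in 36.4% and 10.1%. Split by the calls against control described below, the E-box was in 4 of 11 windows of members called higher after any depletion, 2 of 8 called lower and 6 of 13 not called. The E2F motif was in 4, 2 and 2 of these windows, and the median CpG ratios of these sets were 0.700, 0.733 and 0.674. A match describes the letters and not a bound site.

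**Figure D2:**
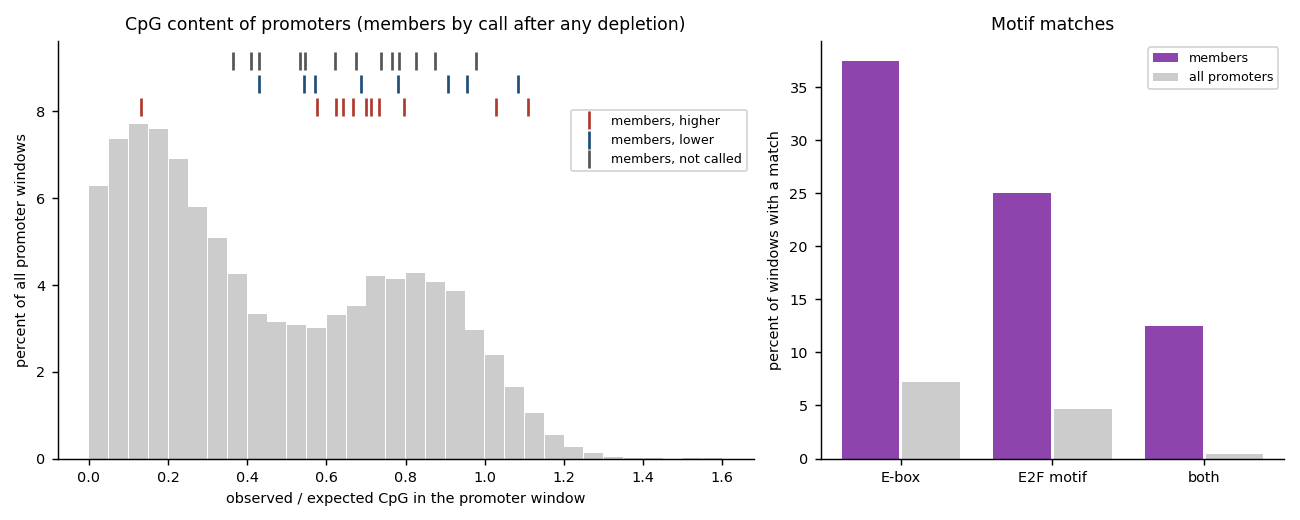
Left, the distribution of the observed to expected CpG ratio over 27025 promoter windows of 300 bases (grey bars, percent of windows), with a tick for each of 32 germline genes, coloured by its call after any depletion. Right, the percent of windows with an E-box, an E2F motif or both, for the germline genes (purple) and all windows (grey). The member bars stand at 37.5%, 25% and 12.5%, and the ticks of the 3 call classes cover overlapping ranges of the CpG ratio.

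The windows below are printed because they carry both motifs (Hormad1, Sycp3, Slc25a31) or belong to the 3 genes that were called in all 3 depletions (Tex19.1, Smc1b, Piwil4). Each runs 5′ to 3′ on the strand of its gene from 250 bases before the RefSeq start site and ends before the annotated gene body, in lower case with motif letters in capitals. They lie at chr3:95559427-95559676 (plus strand), chr10:88459337-88459568 (plus), chr3:40708621-40708854 (plus), chr11:121145893-121146142 (plus), chr15:85131965-85132207 (minus) and chr9:14740734-14740922 (minus) of GRCm38.p6. The fourth gene with both motifs was Ddx4, whose window lies mostly in its annotated gene body. The E2F match of Slc25a31 lies 19 bases after the start site, outside the printed stretch.
Hormad1: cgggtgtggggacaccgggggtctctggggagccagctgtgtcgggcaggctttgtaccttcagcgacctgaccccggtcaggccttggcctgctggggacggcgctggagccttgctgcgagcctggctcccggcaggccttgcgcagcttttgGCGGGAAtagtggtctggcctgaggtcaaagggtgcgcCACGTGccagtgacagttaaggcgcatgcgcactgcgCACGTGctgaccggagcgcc
Sycp3: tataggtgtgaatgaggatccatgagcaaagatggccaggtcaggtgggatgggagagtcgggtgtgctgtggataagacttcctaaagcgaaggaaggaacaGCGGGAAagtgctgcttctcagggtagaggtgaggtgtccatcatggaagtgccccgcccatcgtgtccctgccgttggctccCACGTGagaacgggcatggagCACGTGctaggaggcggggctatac
Slc25a31: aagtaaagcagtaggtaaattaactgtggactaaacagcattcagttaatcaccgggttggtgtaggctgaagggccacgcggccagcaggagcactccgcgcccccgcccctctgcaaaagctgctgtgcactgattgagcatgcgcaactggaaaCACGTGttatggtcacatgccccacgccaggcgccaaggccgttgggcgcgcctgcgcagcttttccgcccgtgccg
Tex19.1: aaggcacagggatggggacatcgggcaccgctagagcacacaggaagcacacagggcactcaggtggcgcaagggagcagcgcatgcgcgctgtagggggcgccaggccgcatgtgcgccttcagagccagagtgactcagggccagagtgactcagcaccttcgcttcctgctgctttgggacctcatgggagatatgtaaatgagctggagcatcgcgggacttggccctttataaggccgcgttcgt
Smc1b: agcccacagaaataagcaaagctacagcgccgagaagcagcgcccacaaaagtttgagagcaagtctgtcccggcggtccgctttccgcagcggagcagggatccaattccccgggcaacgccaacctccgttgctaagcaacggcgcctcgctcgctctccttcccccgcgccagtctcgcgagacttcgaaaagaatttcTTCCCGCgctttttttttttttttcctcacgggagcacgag
Piwil4: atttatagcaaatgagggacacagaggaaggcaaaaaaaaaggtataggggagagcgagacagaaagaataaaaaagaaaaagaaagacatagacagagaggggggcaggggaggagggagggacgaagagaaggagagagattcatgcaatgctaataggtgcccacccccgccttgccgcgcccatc
Hormad1 and Sycp3 each hold a pair of E-boxes shortly before the start site and 1 E2F motif farther out. Smc1b holds 1 E2F motif and no E-box, and the Tex19.1 and Piwil4 windows hold neither.

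Germline genes changed in both directions after each depletion. Calls required a change of over 1.5-fold together with an adjusted p under 0.05 (edgeR's quasi-likelihood test, Benjamini-Hochberg over all genes tested). After Hira depletion, 7 of 36 tested members were called higher and 5 lower, while 10.8% of all 19035 genes tested were called higher and 5.40% lower. After Ubn1 depletion, 1 of 36 was called higher and 5 lower, beside 1.53% and 1.56% of 18373 genes. After Ubn2 depletion, 8 of 35 were called higher and 6 lower, beside 9.59% and 8.75% of 18219 genes. The share of tested members called in either direction was 33.3%, 16.7% and 40.0%, beside 16.2%, 3.09% and 18.3% of all genes tested. The members' median log2 fold change lay close to 0 all the same, at 0.18, -0.07 and 0.14, beside 0.011, -0.0024 and -0.0041 for all genes tested. The 3 comparisons share the control libraries. Statements below that libraries do not overlap, or lie above or below others, describe the values only. Without any difference, 2 against 2 exchangeable libraries separate fully with a chance of 0.333. That chance does not apply where 2 libraries are set against all others. The share of all genes that separate in either way was not computed.

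**Figure D3:**
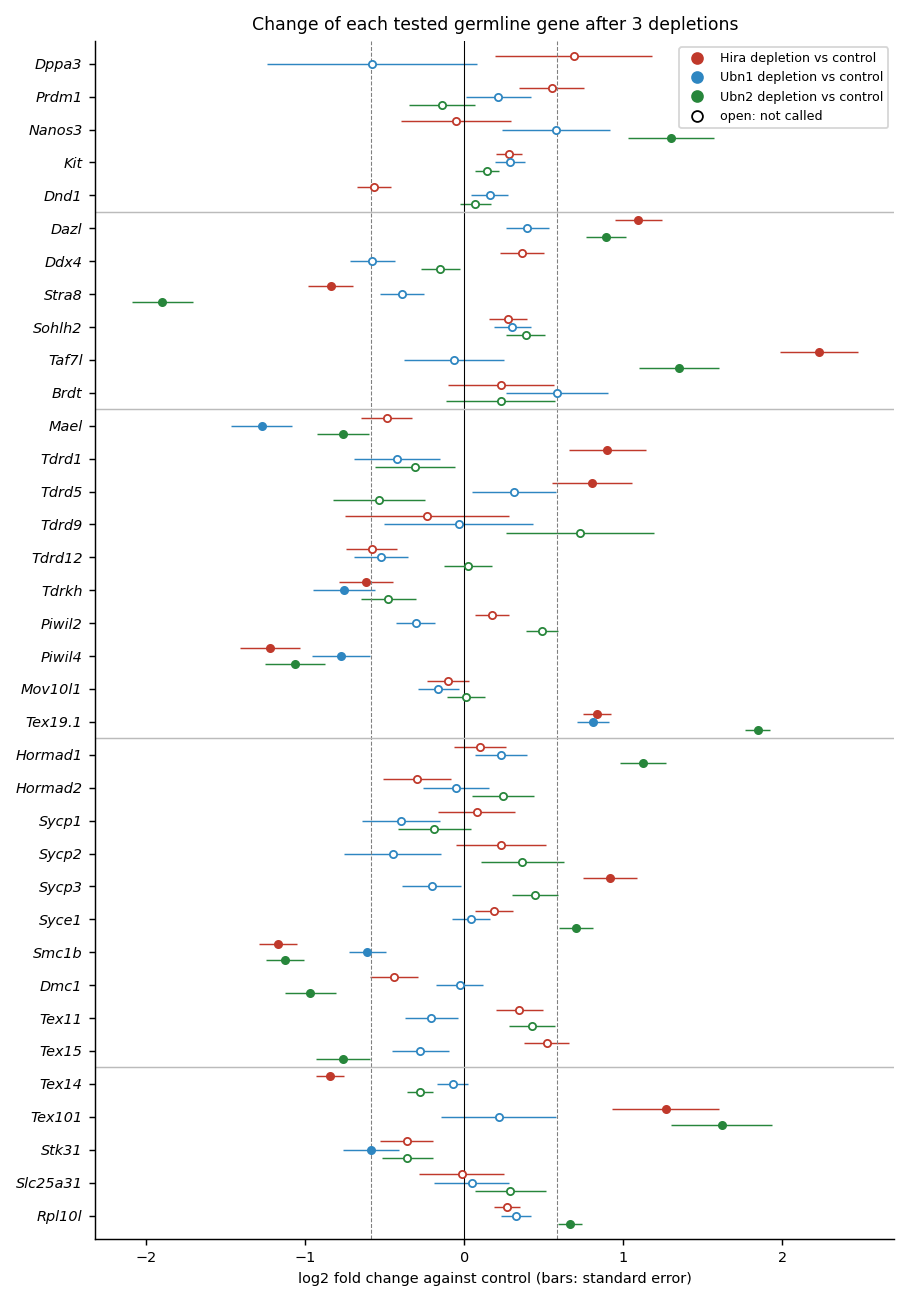
Log2 fold change against control of each germline gene that was tested, after Hira (red), Ubn1 (blue) and Ubn2 (green) depletion. Bars are standard errors, filled points are called, dashed lines mark a 1.5-fold change, and grey lines separate the 5 roles. Filled points lie on both sides of 0 in each depletion, from -1.90 (Stra8) to 1.85 (Tex19.1) after Ubn2 depletion.

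In all, 20 of the 38 genes, or 55.6% of the 36 tested, were called after at least 1 depletion, beside 27.8% of the 19378 genes tested against control. Of the 20, 11 were called higher (30.6% of those tested, beside 16.3% of all genes) and 9 lower (25% beside 12.1%). A call higher after one depletion and lower after another was given to 0 members and to 0.583% of all genes, in comparisons that share their controls. Tex19.1 was the only member called higher in all 3 depletions, and Smc1b and Piwil4 the only ones called lower in all 3. Another 6 genes were called only when depletions were compared directly, 10 were tested and never called, and 2 were never tested. The 6 include Dppa3, whose call is not read as a result for the reason given below. These 10 were Kit, Sohlh2, Brdt, Tdrd9, Tdrd12, Mov10l1, Hormad2, Sycp1, Sycp2 and Slc25a31, with log2 fold changes against control between -0.58 (Tdrd12 after Hira depletion) and 0.72 (Tdrd9 after Ubn2 depletion). Among them, 3 values passed the adjusted p but not the fold. Kit, the receptor for stem cell factor, was at 0.28 ± 0.08 (adjusted p = 0.0123) and Tdrd12, a Tudor domain protein of the piRNA pathway, at -0.58 ± 0.16 (adjusted p = 0.00806) after Hira depletion. Sohlh2, a transcription factor of early germ cells, was at 0.39 ± 0.12 (adjusted p = 0.0159) after Ubn2 depletion.

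**Figure D4:**
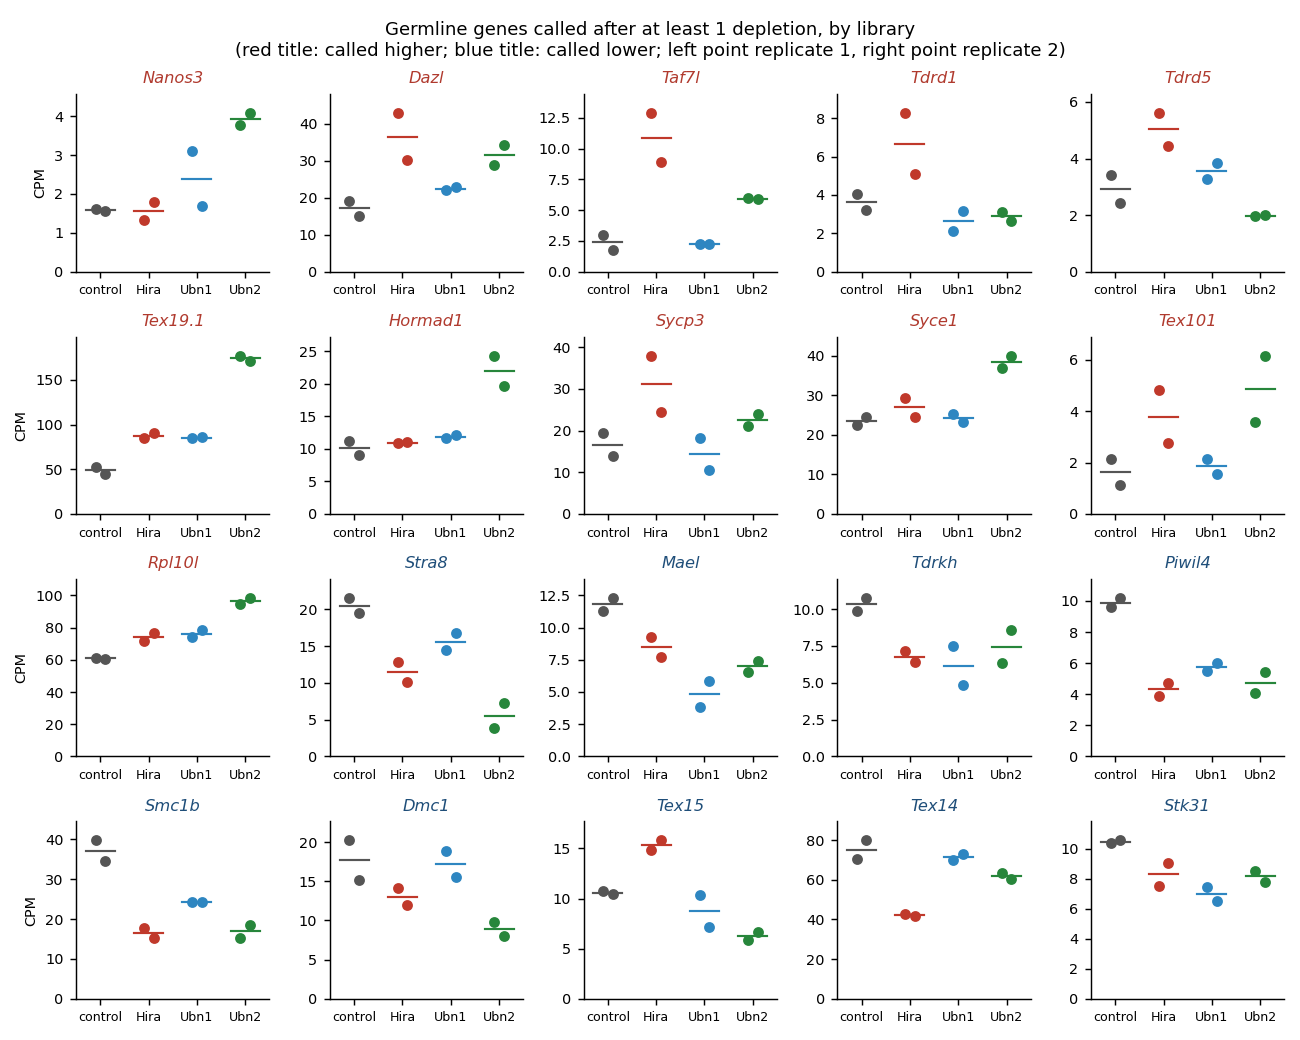
Level of the 20 germline genes called after at least 1 depletion, in CPM, with 1 point per library (left point replicate 1, right point replicate 2) and a bar at the mean of each group. Red titles are genes called higher and blue titles genes called lower. Tex19.1 rises from 44.6 and 52.9 CPM in the control to 172 and 177 after Ubn2 depletion, and Taf7l is highest after Hira depletion, while Tdrd1, Sycp3 and Tex101 have widely spaced libraries after Hira depletion.

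Among the 5 genes of germ cell specification, only Nanos3 was called against control. Nanos3 encodes an RNA-binding protein that keeps primordial germ cells alive, and its RNA was at 1.61 and 1.57 CPM in control, 1.33 and 1.80 with Hira depleted, 3.10 and 1.69 with Ubn1 depleted and 3.77 and 4.08 with Ubn2 depleted. Both Ubn2-depleted libraries stood above all others, and the change from control after Ubn2 depletion was 1.30 ± 0.27 (adjusted p = 0.000668) on the log2 scale, where ± is the standard error here and below. After Hira and Ubn1 depletion it was -0.06 ± 0.35 (adjusted p = 0.921) and 0.58 ± 0.34 (adjusted p = 0.328). Dnd1, which protects germ cell mRNAs, was at 32.5 and 32.6 CPM in control, 21.9 and 22.5 with Hira depleted, 32.5 and 40.3 with Ubn1 depleted and 33.8 and 34.6 with Ubn2 depleted. The Hira-depleted libraries were below all others, at -0.57 ± 0.11 (adjusted p = 0.000300) against control, which passed the adjusted p but fell just short of the fold threshold. Prdm1, the transcription factor that starts primordial germ cell specification, was at 5.36 and 5.09 CPM in control, 8.96 and 6.31 with Hira depleted, 6.25 and 5.88 with Ubn1 depleted and 5.10 and 4.33 with Ubn2 depleted. Its 2 Hira-depleted libraries were the highest, at 0.55 ± 0.21 (adjusted p = 0.0423) against control. Dppa3, which protects the maternal genome from demethylation, had few reads, with 17 and 12 counts in control, 32 and 19 with Hira depleted, 15 and 3 with Ubn1 depleted, and 3 in each Ubn2-depleted library. In CPM its levels were 0.828 and 0.377 CPM in control, 0.969 and 0.901 with Hira depleted, 0.684 and 0.115 with Ubn1 depleted and 0.138 and 0.153 with Ubn2 depleted. Dppa3 did not pass the filter on low counts for Ubn2 depletion against control, where the ratio of the summed levels was 0.262 with a counting interval of 95% from 0.0889 to 0.642. That interval leaves out the spread between libraries. Of its 50-base stretches, 16.5% also occur in other transcripts, most of them of Dppa3-ps, and how multi-mapping reads were counted is not given in the sources used here.

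Among the 6 genes of germ cell RNA binding and transcription, Taf7l and Dazl were called higher and Stra8 lower, each after both Hira and Ubn2 depletion. Taf7l, the germ cell paralog of the general transcription factor subunit TAF7, was at 2.97 and 1.79 CPM in control, 12.9 and 8.92 with Hira depleted, 2.23 in both Ubn1-depleted libraries and 5.98 and 5.86 with Ubn2 depleted. It was higher in both Hira-depleted libraries than in any other, with the Ubn2-depleted libraries between them and the rest. The change was 2.23 ± 0.24 (adjusted p = 7.26e-07) after Hira depletion and 1.35 ± 0.25 (adjusted p = 0.000223) after Ubn2 depletion, and -0.07 ± 0.31 (adjusted p = 0.934) after Ubn1 depletion. Dazl, a translation regulator that marks germ cells, was at 19.08 and 15.1 CPM in control, 42.8 and 30.1 with Hira depleted, 21.9 and 22.9 with Ubn1 depleted and 28.9 and 34.2 with Ubn2 depleted. For Dazl, all 6 depleted libraries lay above both controls. The changes were 1.10 ± 0.15 (adjusted p = 7.76e-06) and 0.89 ± 0.13 (adjusted p = 1.12e-05) after Hira and Ubn2 depletion. The value after Ubn1 depletion was 0.40 ± 0.14 (adjusted p = 0.0661). In the other direction stood Stra8, which is induced by retinoic acid and needed to enter meiosis, at 21.5 and 19.5 CPM in control, 12.8 and 10.1 with Hira depleted, 14.5 and 16.7 with Ubn1 depleted and 3.86 and 7.19 with Ubn2 depleted. All 6 depleted libraries were below both controls, and it was called lower after Hira depletion at -0.84 ± 0.14 (adjusted p = 0.000110) and after Ubn2 depletion at -1.90 ± 0.19 (adjusted p = 1.29e-07), while the value after Ubn1 depletion was -0.39 ± 0.14 (adjusted p = 0.0710). Ddx4, the Vasa helicase of germ granules, was at 22.2 and 19.5 CPM in control, 31 and 22.7 with Hira depleted, 15 and 13 with Ubn1 depleted and 17.9 and 19.6 with Ubn2 depleted. It was not called against control, with 0.36 ± 0.14 (adjusted p = 0.0425) after Hira and -0.58 ± 0.14 (adjusted p = 0.00835) after Ubn1 depletion. Each call against control in this group held in every alternative.

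The piRNA pathway and retrotransposon defence genes were split. Tex19.1 was at 52.9 and 44.6 CPM in control, 84.6 and 90.6 with Hira depleted, 84.9 and 85.8 with Ubn1 depleted and 177 and 172 with Ubn2 depleted. Every depleted library stood above both controls, and the Ubn2-depleted libraries stood apart from the rest. The changes were 0.83 ± 0.09 (adjusted p = 6.38e-07), 0.81 ± 0.10 (adjusted p = 2.76e-06) and 1.85 ± 0.08 (adjusted p = 6.30e-13) after Hira, Ubn1 and Ubn2 depletion. Of its distinct 50-base stretches, 2.67% also occur in the neighbouring paralog Tex19.2. Piwil4 (MIWI2), the PIWI protein that directs DNA methylation to retrotransposons in fetal male germ cells, went the other way, at 9.59 and 10.2 CPM in control, 3.90 and 4.74 with Hira depleted, 5.52 and 6.03 with Ubn1 depleted and 4.05 and 5.45 with Ubn2 depleted. All 6 depleted libraries were below the controls, with changes of -1.22 ± 0.19 (adjusted p = 4.32e-05), -0.78 ± 0.18 (adjusted p = 0.00625) and -1.07 ± 0.19 (adjusted p = 0.000127). The call after Ubn1 depletion was lost without control replicate 2, at -0.74 with an adjusted p of 0.0710. Mael, a further protein of nuclear piRNA silencing, was at 11.3 and 12.3 CPM in control, 9.23 and 7.68 with Hira depleted, 3.83 and 5.88 with Ubn1 depleted and 6.57 and 7.39 with Ubn2 depleted. It was also below the controls in all 6 depleted libraries, and was called lower after Ubn1 depletion at -1.28 ± 0.19 (adjusted p = 4.78e-05) and after Ubn2 depletion at -0.76 ± 0.16 (adjusted p = 0.000846), with -0.49 ± 0.16 (adjusted p = 0.0237) after Hira depletion. Piwil2 (MILI), which amplifies piRNAs in the cytoplasm, was at 27.8 and 26.1 CPM in control, 32 and 29.4 with Hira depleted, 23.1 and 20.5 with Ubn1 depleted and 37.6 and 38 with Ubn2 depleted. It was not called against control, with 0.49 ± 0.10 (adjusted p = 0.000543) after Ubn2 depletion and -0.31 ± 0.12 (adjusted p = 0.124) after Ubn1 depletion.

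Tudor domain proteins bind methylated PIWI proteins and build germ granules. Of those in the piRNA group, Tdrd1 and Tdrd5 were called higher after Hira depletion, Tdrkh was called lower after Hira and Ubn1 depletion, and Tdrd9 and Tdrd12 were not called. Tdrd1 was at 4.04 and 3.21 CPM in control, 8.26 and 5.08 with Hira depleted, 2.14 and 3.19 with Ubn1 depleted and 3.13 and 2.65 with Ubn2 depleted. It was called higher after Hira depletion at 0.90 ± 0.24 (adjusted p = 0.00661), and both Hira-depleted libraries were above all others. Without Hira replicate 1 the call was lost, at 0.48 with an adjusted p of 0.202. Tdrd5 was at 3.41 and 2.42 CPM in control, 5.60 and 4.46 with Hira depleted, 3.28 and 3.84 with Ubn1 depleted and 1.98 and 1.99 with Ubn2 depleted. Its Hira-depleted libraries were again the highest, at 0.80 ± 0.25 (adjusted p = 0.0174) against control. That call was lost without Hira replicate 1 (0.62, adjusted p = 0.116), without control replicate 2 (0.55, adjusted p = 0.190) and in DESeq2 (0.78, adjusted p = 0.0814). Tdrkh, which tethers PIWI proteins to mitochondria, was at 9.88 and 10.8 CPM in control, 7.14 and 6.40 with Hira depleted, 7.48 and 4.84 with Ubn1 depleted and 6.34 and 8.56 with Ubn2 depleted. All depleted libraries were below the controls, and it was called lower after Hira depletion at -0.62 ± 0.17 (adjusted p = 0.00776) and after Ubn1 depletion at -0.76 ± 0.20 (adjusted p = 0.0138), with -0.48 ± 0.18 (adjusted p = 0.0360) after Ubn2 depletion. The Hira call was lost without Hira replicate 2 (-0.55, adjusted p = 0.0254) and without control replicate 2 (-0.56, adjusted p = 0.0583). The Ubn1 call was lost without Ubn1 replicate 2 (-0.47, adjusted p = 0.152), without control replicate 2 (-0.70, adjusted p = 0.0929) and in DESeq2 (-0.76, adjusted p = 0.0588). Tdrkh shares 34.7% of its 50-base stretches with Oaz3, a spermatid gene on the opposite strand, and the strand setting of the counting is not given in the sources used here, so its counts cannot be told from those of Oaz3 over 2255 bases of exon.

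Among the 11 genes of the meiotic chromosome axis, synapsis and recombination, 3 were called lower after at least 1 depletion (Smc1b, Dmc1 and Tex15) and 3 higher (Hormad1, Syce1 and Sycp3). Smc1b, the meiosis-specific subunit of cohesin, was at 39.7 and 34.5 CPM in control, 17.9 and 15.2 with Hira depleted, 24.3 in both Ubn1-depleted libraries and 15.4 and 18.6 with Ubn2 depleted. All 6 depleted libraries were below both controls, with changes of -1.17 ± 0.12 (adjusted p = 2.93e-07), -0.61 ± 0.12 (adjusted p = 0.000804) and -1.13 ± 0.12 (adjusted p = 2.47e-07). The call after Ubn1 depletion was lost without control replicate 1, at -0.50 with an adjusted p of 0.0561. Dmc1, the recombinase that carries out meiotic strand exchange, was at 20.2 and 15.1 CPM in control, 14.1 and 11.9 with Hira depleted, 18.9 and 15.6 with Ubn1 depleted and 9.84 and 8.05 with Ubn2 depleted. It was called lower after Ubn2 depletion at -0.97 ± 0.16 (adjusted p = 6.95e-05), where both libraries were below all others, and was at -0.44 ± 0.15 (adjusted p = 0.0292) after Hira and -0.03 ± 0.15 (adjusted p = 0.938) after Ubn1 depletion. Tex15, which is needed for meiotic break repair and for piRNA-guided methylation, was at 10.7 and 10.4 CPM in control, 14.8 and 15.8 with Hira depleted, 10.4 and 7.14 with Ubn1 depleted and 5.84 and 6.63 with Ubn2 depleted. It lay above the controls after Hira depletion, at 0.52 ± 0.14 (adjusted p = 0.00759), a difference under the fold threshold, and was called lower after Ubn2 depletion at -0.76 ± 0.17 (adjusted p = 0.00114).

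Hormad1, which coats unsynapsed chromosome axes, was at 11.2 and 9.08 CPM in control, 10.9 and 11 with Hira depleted, 11.7 and 12.1 with Ubn1 depleted and 24.3 and 19.6 with Ubn2 depleted. Only the Ubn2-depleted libraries stood above the rest, at 1.13 ± 0.15 (adjusted p = 3.50e-06) against control, with 0.10 ± 0.16 (adjusted p = 0.682) after Hira and 0.23 ± 0.16 (adjusted p = 0.442) after Ubn1 depletion. Of its 50-base stretches, 22.9% also occur in other transcripts, most of them of Gm15529. Syce1 was at 22.4 and 24.6 CPM in control, 29.4 and 24.6 with Hira depleted, 25.3 and 23.3 with Ubn1 depleted and 36.8 and 40.0 with Ubn2 depleted. It too was highest in the Ubn2-depleted libraries, at 0.70 ± 0.10 (adjusted p = 1.86e-05), with 0.19 ± 0.12 (adjusted p = 0.232) after Hira depletion. Sycp3, which builds the axial elements, was at 19.5 and 13.9 CPM in control, 38 and 24.4 with Hira depleted, 18.3 and 10.6 with Ubn1 depleted and 21 and 23.9 with Ubn2 depleted. It was called higher after Hira depletion at 0.92 ± 0.17 (adjusted p = 0.000275), although the 2 Hira-depleted libraries were far apart, and was at 0.44 ± 0.14 (adjusted p = 0.0178) after Ubn2 depletion. The call was lost without Hira replicate 1 (0.54, adjusted p = 0.00246, under the fold threshold) and in DESeq2 (0.88, adjusted p = 0.0853). Sycp3 shares 43.0% of its 50-base stretches with Chpt1, which overlaps it on the opposite strand over 660 bases of exon. As the strand setting is not given, the counts of Sycp3 cannot be told from those of Chpt1 over these bases. Smaller exon overlaps on the opposite strand were those of Dnd1 with Wdr55 (140 bases), Tdrd5 with 4930518J20Rik (176) and Piwil4 with Gm10706 (137). Tex11, which promotes synapsis and crossovers, was at 12.7 and 10.4 CPM in control, 14.3 and 15.3 with Hira depleted, 10.7 and 9.25 with Ubn1 depleted and 15.8 and 15 with Ubn2 depleted. Against control it was at 0.35 ± 0.15 (adjusted p = 0.0766), -0.21 ± 0.17 (adjusted p = 0.506) and 0.42 ± 0.14 (adjusted p = 0.0244), and was not called.

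Of the 5 other germ cell genes, Tex14 was at 70.5 and 79.8 CPM in control, 42.8 and 41.9 with Hira depleted, 70.2 and 73.2 with Ubn1 depleted and 63.5 and 60.6 with Ubn2 depleted. The Hira-depleted libraries stood far below all others, at -0.84 ± 0.09 (adjusted p = 3.91e-07) against control, and the values were -0.07 ± 0.10 (adjusted p = 0.723) and -0.28 ± 0.08 (adjusted p = 0.00932) after Ubn1 and Ubn2 depletion. Tex101, a germ cell surface protein needed for sperm fertility, was at 2.14 and 1.13 CPM in control, 4.81 and 2.75 with Hira depleted, 2.14 and 1.57 with Ubn1 depleted and 3.59 and 6.17 with Ubn2 depleted. It was called higher after Hira depletion at 1.27 ± 0.33 (adjusted p = 0.00560) and after Ubn2 depletion at 1.62 ± 0.32 (adjusted p = 0.000369). The Hira call was lost without Hira replicate 1 (0.78, adjusted p = 0.127) and without control replicate 2 (0.83, adjusted p = 0.0780). Rpl10l was at 61.3 and 60.4 CPM in control, 71.6 and 76.5 with Hira depleted, 74.2 and 78.5 with Ubn1 depleted and 94.7 and 98.4 with Ubn2 depleted. All depleted libraries were above the controls and it was called after Ubn2 depletion at 0.67 ± 0.07 (adjusted p = 4.58e-07), beside 0.27 ± 0.08 (adjusted p = 0.0145) and 0.33 ± 0.10 (adjusted p = 0.0334) after Hira and Ubn1 depletion. It is close in sequence to other Rpl10 copies, and 7.60% of its 50-base stretches occur in Gm14460. Stk31, a Tudor domain protein with a kinase-like region, was at 10.4 and 10.6 CPM in control, 7.54 and 9.06 with Hira depleted, 7.48 and 6.53 with Ubn1 depleted and 8.55 and 7.80 with Ubn2 depleted. It was called lower after Ubn1 depletion at -0.59 ± 0.18 (adjusted p = 0.0353), a call lost in DESeq2 (-0.59, adjusted p = 0.108), without Ubn1 replicate 2 (-0.49, adjusted p = 0.128) and without control replicate 1 or 2 (-0.59 and -0.58, adjusted p = 0.175 and 0.180).

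How far the counts of calls rest on single libraries differed between the depletions. All 14 calls after Ubn2 depletion held in every alternative tried, including those that left out 1 library. After Hira depletion 7 of 12 held, and the count of members called higher was 3 without Hira replicate 1, when 8.90% of all genes tested were called higher. In that library 25 of 35 members were higher than in its partner, as given above, and the part of this in the calls was not tested. After Ubn1 depletion 2 of 6 calls held, those of Tex19.1 and Mael, and the count of members called lower was 8 without Ubn1 replicate 1, when 1.91% of all genes were called lower. It was 3 without Ubn1 replicate 2, control replicate 1 or control replicate 2, beside 1.97%, 0.922% and 0.969% of all genes.

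The depletions were then compared with each other on the depleted libraries alone. The targeted RNA fell further in Hira depletion than in Ubn1 or Ubn2 depletion, as given above. Strength of depletion and the subunit depleted cannot be told apart where Hira depletion is compared. Between Hira and Ubn2 depletion, 7 of 36 tested members were higher after Hira depletion and 4 were lower, beside 12.0% and 5.61% of 18563 genes, or 17.6% in either direction. The 7 were Dppa3, Prdm1, Stra8, Taf7l, Tdrd1, Tdrd5 and Tex15. Tex15 stood at 1.30 ± 0.16 (adjusted p = 2.72e-05) and Tdrd5 at 1.36 ± 0.26 (adjusted p = 0.000891), both with every Hira-depleted library above every Ubn2-depleted one. Tdrd1, Stra8 and Taf7l followed at 1.23 ± 0.26 (adjusted p = 0.00215), 1.08 ± 0.24 (adjusted p = 0.00267) and 0.90 ± 0.20 (adjusted p = 0.00260). Dppa3 had 51 counts over the Hira-depleted and 6 over the Ubn2-depleted libraries, a ratio of levels of 6.498 with a counting interval of 95% from 2.79 to 18.5. That interval leaves out the spread between libraries. Dppa3 passed the filter on low counts here only through the Hira-depleted libraries where it was high. Both Ubn2-depleted libraries had 3 counts, so its call is not read as a result. Prdm1 at 0.71 ± 0.22 (adjusted p = 0.0191) was lost without Hira replicate 1 (0.42, adjusted p = 0.232), without Ubn2 replicate 2 (0.60, adjusted p = 0.0640) and in DESeq2 (0.69, adjusted p = 0.0666). The 4 members lower after Hira depletion were Nanos3 at -1.34 ± 0.29 (adjusted p = 0.00235), Hormad1 at -1.001 ± 0.14 (adjusted p = 7.91e-05), Tex19.1 at -0.99 ± 0.07 (adjusted p = 2.75e-07) and Dnd1 at -0.62 ± 0.10 (adjusted p = 0.000326). Their count was 9 without Hira replicate 1, when 5.05% of all genes were called lower.

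Between Hira and Ubn1 depletion, 8 of 36 members were higher after Hira depletion and 2 were lower, beside 9.52% and 3.16% of 18819 genes, or 12.7% in either direction. Taf7l differed by 2.30 ± 0.23 (adjusted p = 6.42e-08) and Tdrd1 by 1.34 ± 0.27 (adjusted p = 0.000516). Ddx4, which was called in no comparison with control, differed by 0.96 ± 0.15 (adjusted p = 3.18e-05), and its 2 Ubn1-depleted libraries were the lowest of the 8. The RNA-binding protein gene Dazl differed by 0.72 ± 0.14 (adjusted p = 0.000334), and without Hira replicate 1 by 0.43 (adjusted p = 0.0621). Mael at 0.81 ± 0.22 (adjusted p = 0.00756) was lost without Hira replicate 1 (0.66, adjusted p = 0.0794) and without Ubn1 replicate 1 (0.52, adjusted p = 0.107). Tex15 at 0.82 ± 0.18 (adjusted p = 0.00128) fell under the fold threshold without Ubn1 replicate 2 (0.56, adjusted p = 0.0234). Sycp3 at 1.14 ± 0.19 (adjusted p = 6.89e-05) was not called in DESeq2 (1.09, adjusted p = 0.103). Tex101 at 1.06 ± 0.31 (adjusted p = 0.0132) was lost in DESeq2 (1.02, adjusted p = 0.0818), without Hira replicate 1 (0.58, adjusted p = 0.396) and without Ubn1 replicate 2 (0.85, adjusted p = 0.0799). The lower members were Tex14 at -0.75 ± 0.10 (adjusted p = 4.69e-06) and Dnd1 at -0.71 ± 0.12 (adjusted p = 0.000128), the latter under the fold threshold without Ubn1 replicate 2 (-0.55, adjusted p = 0.00163). The count of lower members was 4 without Hira replicate 1 and 1 without Ubn1 replicate 2, beside 2.85% and 2.80% of all genes.

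Between Ubn1 and Ubn2 depletion, 3 of 35 members were higher after Ubn1 depletion and 8 were lower, beside 4.09% and 4.61% of 18205 genes, or 8.70% in either direction. Stra8 was higher after Ubn1 depletion by 1.51 ± 0.22 (adjusted p = 0.000160) and Dmc1 by 0.94 ± 0.16 (adjusted p = 0.000732), both without overlap of the libraries. Tdrd5 at 0.85 ± 0.27 (adjusted p = 0.0433) was lost in DESeq2 (0.85, adjusted p = 0.183), without Ubn1 replicate 2 (0.73, adjusted p = 0.157), and without Ubn2 replicate 1 (0.84, adjusted p = 0.167) or replicate 2 (0.85, adjusted p = 0.132). The 3 genes that were called higher against control in both Hira and Ubn2 depletion but not in Ubn1 depletion, Dazl, Taf7l and Tex101, differed between Ubn1 and Ubn2 depletion by -0.49 ± 0.12 (adjusted p = 0.00967), -1.40 ± 0.24 (adjusted p = 0.000587) and -1.39 ± 0.30 (adjusted p = 0.00455). The first of these is under the fold threshold, and the last was lost without Ubn2 replicate 2 (-0.96, adjusted p = 0.0820). Tex19.1 was lower after Ubn1 depletion by -1.03 ± 0.08 (adjusted p = 4.63e-07), although both depletions raised it. Hormad1 at -0.89 ± 0.14 (adjusted p = 0.000385), Piwil2 at -0.79 ± 0.11 (adjusted p = 0.000125) and Syce1 at -0.66 ± 0.11 (adjusted p = 0.000553) held in every alternative. Sycp3 at -0.65 ± 0.19 (adjusted p = 0.0256) was lost without Ubn1 replicate 2 (-0.29, adjusted p = 0.201) and fell under the fold threshold without Ubn2 replicate 2 (-0.55, adjusted p = 0.0351). Tex11 at -0.63 ± 0.15 (adjusted p = 0.00969) fell under the fold threshold without Ubn1 replicate 2 (-0.52, adjusted p = 0.0346) and was lost without Ubn2 replicate 1 (-0.59, adjusted p = 0.0617).

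**Figure D5:**
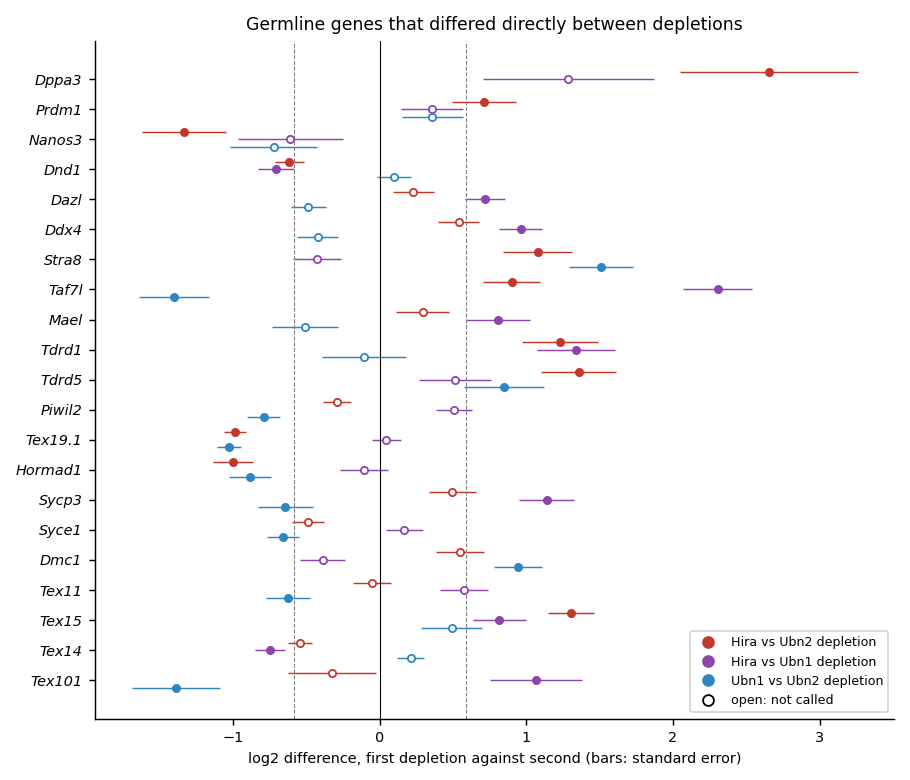
Log2 difference between depletions of the 21 germline genes called in a direct comparison, for Hira against Ubn2 (red), Hira against Ubn1 (purple) and Ubn1 against Ubn2 depletion (blue). Bars are standard errors, filled points are called and dashed lines mark a 1.5-fold difference. Taf7l is filled in all 3 comparisons, and Tex19.1 and Hormad1 lie well below 0 wherever Ubn2 depletion is the second of the pair. The call of Dppa3 is not read as a result.

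Lists of other genes of the same pathways were read in the same fits. Of 30 other meiotic genes, 0 were called higher and 9 of 27 tested were called lower after Hira depletion, 0 and 2 of 26 after Ubn1 depletion, and 0 and 7 of 27 after Ubn2 depletion, beside 5.40%, 1.56% and 8.75% of all genes called lower and 10.8%, 1.53% and 9.59% called higher. The list's median log2 fold changes were -0.34, -0.15 and -0.26, beside 0.011, -0.0024 and -0.0041 for all genes. Meioc, which keeps germ cells in the meiotic program, was lower after each depletion at -1.502 ± 0.10 (adjusted p = 1.96e-09), -0.72 ± 0.10 (adjusted p = 2.60e-05) and -1.07 ± 0.09 (adjusted p = 1.42e-08). Hsf2bp, a partner of the recombination factor BRCA2, was at -0.77 ± 0.09 (adjusted p = 1.47e-06) after Hira depletion, and Syce2, a central element protein of the synaptonemal complex, at -0.70 ± 0.08 (adjusted p = 2.17e-06) and -0.65 ± 0.08 (adjusted p = 2.37e-06) after Hira and Ubn2 depletion. The summed level of this list was between 639 and 672 CPM in control, 468 and 482 with Hira depleted, 565.9 and 566.6 with Ubn1 depleted, and 529 and 542 with Ubn2 depleted, without overlap between any of the 4 groups. Of 14 other piRNA pathway genes, 13 were tested, and 1, 0 and 1 were called higher and 2, 1 and 3 lower after Hira, Ubn1 and Ubn2 depletion, with medians of -0.27, -0.075 and -0.085. The only one called higher after Hira depletion was Spocd1, which works with MIWI2 in methylating retrotransposons, at 1.99 ± 0.37 (adjusted p = 0.000287). After Ubn2 depletion it was Fkbp6, a chaperone of piRNA production, at 1.16 ± 0.26 (adjusted p = 0.00114). The genes called lower, which were more, are not named here. Of 15 other germ cell specification genes, 9, 10 and 9 were tested, and 3, 1 and 3 were called higher and 0, 1 and 0 lower, with medians of 0.53, 0.032 and 0.24. Among them Prdm14, which acts with PRDM1 in specifying germ cells and is also part of naive pluripotency, was higher after each depletion at 0.65 ± 0.12 (adjusted p = 0.000291), 0.67 ± 0.13 (adjusted p = 0.000739) and 0.83 ± 0.12 (adjusted p = 9.17e-06).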

How the data were processed

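RNA-seq libraries of control, Hira-, Ubn1- and Ubn2-depleted ESCs were used, 2 of each. Per the labels and methods, the authors used Trim Galore for trimming, STAR for alignment to GRCm38 and featureCounts for counting per gene, and deposited raw counts in 3 tables that repeat the control libraries (0 differing values). Versions, strand setting and the handling of multi-mapping reads are not given in the sources used here. Of 55418 genes, 21460 had no count. The 38 members, the other gene lists and the tests were chosen with earlier results of these data known.

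Each comparison was fitted on its own 4 libraries with edgeR 4.0.16 in R 4.3.3 (TMM normalization, filterByExpr, quasi-likelihood test, Benjamini-Hochberg adjustment over all genes tested). Calls needed over 1.5-fold change and an adjusted p under 0.05, as the study did. Standard errors were taken as the size of the log2 fold change over the root of its F statistic. CPM values use TMM-scaled totals of each library, and levels per kb use exon lengths of GENCODE M21 (GRCm38), where 55303 symbols matched 1 gene. Values in every library are given for members called in any comparison. From each other list, at most 3 called genes per comparison were named, smallest adjusted p first. With 2 against 2 libraries an exact two-sided permutation test cannot go below 0.333, so none was used.

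Promoters are RefSeq windows of GRCm38.p6, 1 per gene. Shared sequence was counted as exact 50-base stretches of GENCODE transcripts, on both strands, that also occur in another gene's transcripts. Alternatives were DESeq2 1.42.0 (Wald test), its size factors in edgeR, no filter, a minimum of 10 counts in each library, 1 fit over all 8 libraries, a replicate block, adjusted p alone and each library left out. A block with crossed replicate numbers was added after seeing the data. The fits were tested on simulated counts. Tables and figures were made with Python 3.11.15 (pandas 2.3.3, numpy 2.4.6 and matplotlib 3.10.9).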

Additional observations from a re-analysis of the deposited data

Results flagged for a closer look

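The direct tests between depletions, each on 2 against 2 libraries, picked out 32 differences among the germline genes, given here as log2 differences. The p-values and the libraries on which single differences rest are in the report. Where Hira depletion is compared, the subunit cannot be told apart from the stronger fall of the targeted RNA.

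For Hira against Ubn2 depletion the differences were 2.66 for Dppa3 (a fitted value that depends on few counts), 1.36 for Tdrd5, 1.30 for Tex15, 1.23 for Tdrd1, 1.08 for Stra8, 0.90 for Taf7l and 0.71 for Prdm1 on the higher side. On the lower side they were -1.34 for Nanos3, -1.001 for Hormad1, -0.99 for Tex19.1 and -0.62 for Dnd1. Dppa3 passed the filter on low counts only through the Hira-depleted libraries where it was high, so its difference is not read as a result.

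For Hira against Ubn1 depletion the differences were 2.30 for Taf7l, 1.34 for Tdrd1, 1.14 for Sycp3, 1.06 for Tex101, 0.96 for Ddx4, 0.82 for Tex15, 0.81 for Mael and 0.72 for Dazl on the higher side. Tex14 at -0.75 and Dnd1 at -0.71 were lower.

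For Ubn1 against Ubn2 depletion the differences were 1.51 for Stra8, 0.94 for Dmc1 and 0.85 for Tdrd5 on the higher side. On the lower side they were -1.40 for Taf7l, -1.39 for Tex101, -1.03 for Tex19.1, -0.89 for Hormad1, -0.79 for Piwil2, -0.66 for Syce1, -0.65 for Sycp3 and -0.63 for Tex11.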

How the results depend on the processing

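No value that was called in the main comparison changed its sign under any alternative. DESeq2's size factors, no filter, all 8 libraries in 1 fit and the replicate block kept all 64 calls over the 6 comparisons, and the filter of at least 10 counts kept the 63 it could test. DESeq2's Wald test kept 56 of 64 and gave 3 members lower after Ubn1 depletion in place of 5. Calls by adjusted p alone gave 12 higher and 9 lower after Hira depletion (17.6% and 17.3% of all genes), 2 higher after Ubn1 depletion (4.14%), and 9 lower for Hira against Ubn2 depletion (17.2%). With 1 library left out, 224 of 256 repeated calls held. The count called higher after Hira depletion then ranged from 3 to 8, lower after Ubn1 depletion from 3 to 8, lower for Hira against Ubn2 depletion from 4 to 9, and lower for Hira against Ubn1 depletion from 1 to 4. The group left with 1 library is assumed there to vary like the other group.

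The replicate numbers of the labels are not said to mark shared batches, so the libraries were not treated as paired. Over 16261 genes, the deviation of a library from its group mean correlated with that of the equally numbered library of another group at between -0.121 and 0.112 in the 6 pairs of groups. The replicate block kept every call and added 1, Sycp2 for Ubn1 against Ubn2 depletion at -0.81 (edgeR, adjusted p = 0.0409). With crossed replicate numbers, added because 2 of the correlations were below -0.1, 7 members were higher and 5 lower for Hira against Ubn2 depletion, and 9 and 2 for Hira against Ubn1 depletion.

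Depth limits the genes with few counts. Among values that were not called, 72 of 600 changed sign with 1 library left out, the widest of them at 0.58 in size. The cause of the changes above was not tested.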

Other observations

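Genes of DNA methylation and demethylation, PRC1.6 and H3K9 methylation were read in the same fits. The first list mixes genes that add or keep methylation with genes that remove it, so its sums and medians mix both. Of its 9 genes, 4 were called lower and 0 higher after Hira depletion, beside 5.40% and 10.8% of all genes, with a median log2 fold change of -0.49. None was called in either direction after Ubn1 or Ubn2 depletion, with medians of -0.10 and 0.06. Hells, a chromatin remodeler that DNA methylation depends on, was at -1.28 ± 0.08 (adjusted p = 2.79e-10) after Hira depletion. Dnmt3l, the cofactor of the de novo methyltransferases, was at -0.94 ± 0.09 (adjusted p = 1.95e-07) and Uhrf1, which guides maintenance methylation, at -0.67 ± 0.08 (adjusted p = 1.68e-06). The summed level of the 9 genes was 1650 and 1998 CPM after Hira depletion and between 2443 and 2769 CPM in the other 6 libraries.

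The 14 subunits of PRC1.6 were all tested and 1 was called, Yaf2, higher after Hira depletion at 0.61 ± 0.17 (adjusted p = 0.00883), where 10.8% of all genes were called higher. Their summed level lay between 1642 and 1785 CPM over all 8 libraries. Of 8 genes of H3K9 methylation, 1 was called, Atf7ip, a partner of the methyltransferase SETDB1, higher after Ubn2 depletion at 0.65 ± 0.07 (adjusted p = 3.84e-07), where 9.59% of all genes were called higher. The summed level of these 8 genes was between 2443 and 2658 CPM in control, 1828 and 2126 with Hira depleted, 2613 and 2822 with Ubn1 depleted, and 2873 and 2905 with Ubn2 depleted, so that the Hira-depleted libraries lay below the control and the Ubn2-depleted libraries above it. The median log2 fold changes of these 8 genes were -0.14, 0.079 and 0.13 after Hira, Ubn1 and Ubn2 depletion. Their sum gives most weight to the most abundant of them. The part of the levels of these lists in the changes of the germline genes was not tested.

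Markers of other cell types were also read in these fits. Of 5 tested neural progenitor markers, 3, 1 and 2 were called higher after Hira, Ubn1 and Ubn2 depletion and 0 lower, beside 10.8%, 1.53% and 9.59% of all genes called higher, and the 7 markers summed to between 116 and 121 CPM in the control and between 220 and 235 CPM after Hira depletion. Nes, an intermediate filament gene of neural progenitors, was at 1.39 ± 0.11 (adjusted p = 8.07e-09) after Hira depletion. Of 7 tested primitive endoderm markers, 1 was called higher after Hira depletion, beside 10.8% of all genes, and 2 lower after Ubn1 depletion, beside 1.56%. None was called after Ubn2 depletion, beside 9.59% of all genes called higher and 8.75% lower. Of 8 primed epiblast and primitive streak markers, 1 was called higher and 1 lower of 7 tested after Hira depletion, 2 and 0 of 6 after Ubn1 depletion, and 1 and 1 of 5 after Ubn2 depletion. Over all genes, 10.8%, 1.53% and 9.59% were called higher and 5.40%, 1.56% and 8.75% lower. Their summed level was between 90.2 and 101 CPM in control, 93.9 and 94.1 with Hira depleted, 179.8 and 183 with Ubn1 depleted, and 98.7 and 107 with Ubn2 depleted. A sum gives most weight to the most abundant genes. The median log2 fold changes of the tested markers were 0.39, 0.0097 and -0.061 after Hira, Ubn1 and Ubn2 depletion. Lefty2, a secreted inhibitor of Nodal signalling, was higher after Ubn1 depletion at 1.17 ± 0.10 (adjusted p = 3.07e-09), and the transcription factor gene Pou3f1 was lower after Hira depletion at -0.91 ± 0.23 (adjusted p = 0.00401). The mesoderm transcription factor gene T, called lower after Ubn2 depletion, had few reads, at 0.519 ± 0.023 CPM (SD, n = 2) in control and 0.0944 ± 0.061 CPM (SD, n = 2) with Ubn2 depleted. T passed the filter on low counts only through the control libraries where it was high, so its call is not read as a result. Otx2 was higher after each depletion at 0.67 ± 0.11 (adjusted p = 7.71e-05), 0.73 ± 0.12 (adjusted p = 0.000114) and 0.97 ± 0.11 (adjusted p = 3.11e-07).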
